A study of Mus musculus with 62 samples.

Results

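The comparison described here set the gastrocnemius muscle of cachectic mice 6 weeks after tumour cell injection against the same muscle 4 weeks after injection. Its members were the cachectic (CAC) libraries of those weeks, picked by their labels alone: 5 at 6 weeks and 5 at 4 weeks, 10 of the 62 libraries in the series. The mice were female, aged 2 months, and had received melanoma cells that cause cachexia. Mock-injected mice (Con, 5 at 4 weeks and 5 at 6 weeks) gave the change with time alone, and cachectic mice at 2 and 8 weeks (12 libraries) helped to set the spread. Mice injected with melanoma cells that do not cause cachexia (NCAC) were not compared with any group. Their libraries still entered the gene filter, the scaling of libraries, the first principal component and the fits of all 12 groups. The sources disagree on the strain: the series text gives nude mice, whereas the sample labels give C57BL/6J. The extraction protocol also names a time point of another tumour model (LLC), and the melanoma line is not named. The labels call the replicates biological, without saying how tumours, cages or dissection days were shared.

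Cachexia is the loss of muscle and fat that accompanies many tumours. In wasting muscle, FoxO transcription factors and glucocorticoids raise ubiquitin ligases such as MuRF1 and atrogin-1, which mark proteins for the proteasome. Interleukin-6 family cytokines act through STAT3 and are known for raising acute phase genes outside the liver as well as in it, while insulin and insulin-like growth factor 1 oppose FoxO and favour protein synthesis.

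Expression was given by the authors as TPM, transcripts per 1000000 transcripts, a share of each library's RNA corrected for transcript length. Differences are in log2(TPM + 1), 6 weeks minus 4 weeks, with the standard error (SE) of the limma fit; this scale understates the change of genes with low TPM. A gene was tested when its TPM reached 1 in 5 or more of the 62 libraries (12364 genes), and it was called at a Benjamini-Hochberg adjusted p under 0.05. Libraries are named by week and replicate number. The depth, estimated from the steps between low TPM values, was 46.04 to 48.31 in units of 1000000 reads in the 10 libraries, with 78.17 to 78.97% of low values lying within 0.02 of a whole read. The tissue matched its label: all 12 muscle markers were tested, and Ckm, muscle creatine kinase, averaged 19065 ± 923 TPM at 4 weeks and 19520 ± 2572 at 6 weeks (SD, n = 5 each). In bulk muscle, fewer cells of a type and less RNA per cell cannot be told apart.

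No gene was called between 6 and 4 weeks in cachectic muscle by limma (0% of 12364), and the lowest adjusted p was 0.306. At an unadjusted p under 0.05 stood 1891 genes with a higher mean at 6 weeks (15.3%) and 104 with a lower mean (0.841%). After libraries were scaled by median ratios those counts turned over, to 447 higher and 668 lower, with 0 called. Without library 1 at 6 weeks 818 stood higher, and without library 2 at 4 weeks 4469. For 156 genes (1.26%) all 5 libraries at 6 weeks lay above all 5 at 4 weeks, and for 15 genes (0.121%) all lay below. The count rested on the fit: limma called 1208 genes when all 12 groups of the series set the spread (1159 higher, 9.37%, and 49 lower, 0.396%), 3418 when libraries were weighted by their spread (3223 higher and 195 lower), and 1, the desaturase gene Scd1, when the 10 libraries alone were fitted. With scaling the first became 28 higher and 58 lower, and the second 197 higher and 383 lower, so most calls then had a lower mean. In mock muscle over the same weeks, limma called 696 genes, of which 668 rose (5.4%) and 28 fell (0.226%), with a median difference of 0.06 (107 and 46 with scaling). Below, the members of a gene list that stood higher or lower are counted at an unadjusted p under 0.05, to be read beside those shares of all genes (15.3% higher, 0.841% lower). For cachectic muscle, counts after scaling follow where they differ. Those are to be read beside the 447 higher and 668 lower of all 12364 genes after scaling.

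Most tested genes had a higher mean at 6 weeks: 10341 of 12364 had a positive difference, and the median was 0.18, which became 0.01 after scaling. Along with this shift, transcripts of the mitochondrial genome took a smaller share of TPM at 6 weeks. Their share was 32.56, 24.55, 28.87, 28.78 and 28.05% at 4 weeks and 19.70, 23.34, 25.77, 25.04 and 30.71% at 6 weeks. The difference of -3.65 percentage points had an exact two-sided permutation p of 0.143, where 0.00794 is the smallest p that 5 against 5 allows. In mock muscle the difference was -0.09 points (exact permutation p = 0.921). Library 1 at 6 weeks had the lowest share and library 5 at 6 weeks a share above 4 of the 5 libraries at 4 weeks, so the groups overlapped.

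The cachectic libraries of one week also stood apart from each other. The first principal component of all 62 libraries, which held 49.1% of the variance, scored -1.29, 57.2, 4.50, 15.6 and 1.95 at 4 weeks and 72.2, 43.8, 33.8, 47.7 and 31.5 at 6 weeks. Library 2 at 4 weeks lay within the range of the 6-week libraries, and library 1 at 6 weeks lay highest of the 10. These were also the libraries of lowest array weight, a limma measure of how closely a library follows its group (0.25 and 0.31). Leaving both out left 0 genes called by limma, with 2823 higher and 148 lower at an unadjusted p under 0.05 and a median of 0.20.

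**Figure D1:**
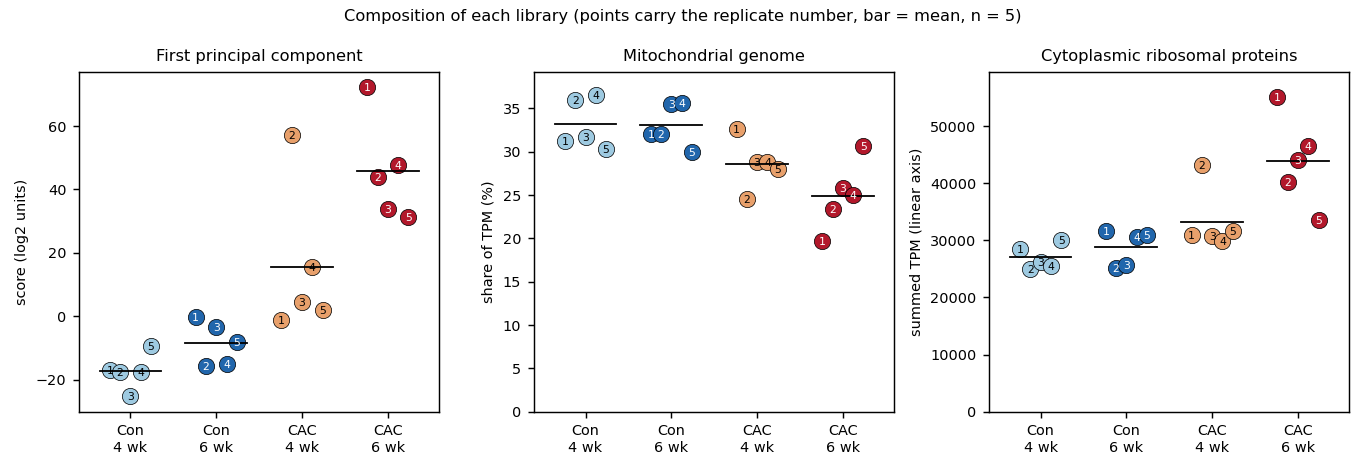
Each numbered point is one library, grouped by injection and week, with a black bar at the group mean. Panels give the first principal component score, the share of TPM from the mitochondrial genome (%) and the summed TPM of cytoplasmic ribosomal protein genes. Library 2 of the cachectic 4-week group and library 1 of the cachectic 6-week group lie away from most of their groups in all 3 panels, and library 5 of the 6-week group stands furthest apart for the mitochondrial share (30.71%).

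The ubiquitin ligases that define muscle atrophy varied widely within each week. Trim63 (chr4:134315120-134329629, mm10), which encodes MuRF1, stood at 223, 1799, 218, 553 and 206 TPM at 4 weeks and at 2134, 1126, 388, 434 and 330.0 TPM at 6 weeks. Library 2 at 4 weeks exceeded 4 of the 5 libraries at 6 weeks, and the difference was 0.75 (SE 0.77, limma adjusted p = 0.519). It ran from 0.33 without library 1 at 6 weeks to 1.29 without library 2 at 4 weeks. Fbxo32 (chr15:58175879-58214932), which encodes atrogin-1, read 118, 846, 103, 261 and 101 TPM at 4 weeks and 798, 512, 277, 287 and 192 TPM at 6 weeks (0.90, SE 0.70, limma adjusted p = 0.403). Mock muscle held Trim63 at 152 to 203 TPM in all 10 libraries of both weeks. All 10 cachectic libraries lay above that range, but libraries 1, 3 and 5 at 4 weeks (223, 218 and 206 TPM) only just did so. How many of all genes separated cachectic from mock libraries was not counted. Foxo1, a FoxO factor upstream of both ligases, differed by 0.65 (SE 0.50; 0.30 and 0.97 without those libraries), and library 1 at 6 weeks was highest at 43.2 TPM. Of 18 ubiquitin ligases tested, 1 stood higher and 0 lower at an unadjusted p under 0.05, with a median of 0.19 beside 0.18 over all genes (0 higher, 1 lower and -0.02 after scaling).

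Proteasome genes had a higher mean as a group. Of 37 subunits, 35 were positive, 13 stood higher at an unadjusted p under 0.05 (none lower), and the median was 0.30. After scaling 1 of the 37 stood higher, with a median of 0.09. Psmd4, a ubiquitin receptor of the proteasome, measured 107, 214, 107, 125 and 103 TPM at 4 weeks and 344, 229, 145, 179 and 135 TPM at 6 weeks (0.62, SE 0.26, limma adjusted p = 0.306). Libraries 1, 3, 4 and 5 at 4 weeks lay below every library at 6 weeks, and library 2 lay inside the 6-week range. Autophagy and lysosome genes gave 6 of 29 higher and 0 lower (median 0.31), or 0 higher and 1 lower after scaling (median 0.11), with Bnip3, a mitophagy receptor, at 256 ± 152 TPM at 4 weeks and 384 ± 167 at 6 weeks (SD, n = 5 each).

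Glucocorticoid-responsive genes were lowest in libraries 1, 3 and 5 at 4 weeks. Fkbp5, a chaperone that the glucocorticoid receptor raises strongly, read 13.5, 149.9, 21.4, 59.7 and 5.87 TPM at 4 weeks and 191, 67.5, 102, 76.9 and 73.9 TPM at 6 weeks. Its difference was 1.72 (SE 0.70, limma adjusted p = 0.306), and 2.06 without the lowest-weight library of each week; in mock muscle it was -0.07. Cebpd, a stress-responsive transcription factor, stood at 26.2, 282, 61.0, 112 and 19.2 TPM and then 321, 241, 103, 163 and 131 TPM (1.46, SE 0.61). Libraries 1, 3 and 5 at 4 weeks lay below every 6-week library for both genes, whereas library 2 lay above most of them. Over 21 genes of the list, 7 stood higher and 0 lower at an unadjusted p under 0.05, and the median was 0.65 in cachectic and -0.02 in mock muscle. After scaling 6 stood higher and 1 lower, with a median of 0.44. Among them Glul, glutamine synthetase, averaged 380 ± 270 TPM at 4 weeks and 705 ± 235 TPM at 6 weeks, and Ddit4, an inhibitor of mTORC1, differed by 2.04 (SE 0.87).

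Metallothioneins, small proteins that bind zinc and copper, varied widely within each week. Mt1 measured 105, 2241, 309, 989 and 61.2 TPM at 4 weeks and 5809, 1777, 1304, 789.6 and 761 TPM at 6 weeks. Mt2 measured 65.3, 2086, 313, 1188 and 42.3 TPM at 4 weeks and 5281, 2043, 1514, 695 and 821 TPM at 6 weeks. Both genes ranked the libraries alike at the extremes: library 5 was lowest at 4 weeks and library 1 highest at 6 weeks. The differences were 2.16 (SE 0.93) for Mt1 and 2.41 (SE 1.10) for Mt2, each with a limma adjusted p of 0.306. With all 12 groups in the fit, limma gave Mt1 an adjusted p of 0.0381 and Mt2 one of 0.054. With scaling added these were 0.102 and 0.151, so the call of Mt1 was lost. Slc39a14, a zinc importer, differed by 1.17 (SE 0.62), with 54.5 TPM in library 1 at 6 weeks and at most 9.23 TPM in the other 4. Over 14 metallothionein and zinc transporter genes, 4 stood higher and 0 lower (median 0.28), and 2 and 0 after scaling (median 0.11).

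Mt1 and Mt2 are neighbours on chromosome 8, and their promoters are printed because both genes were high in the same libraries. The windows run from 250 bases before to 50 after the start site (RefSeq, GRCm38.p6). Capitals mark TGCACNC or TGCGCNC, the core of the metal response element bound by the zinc sensor MTF-1, found on either strand.
Mt1, chr8:94178839-94179138, + strand: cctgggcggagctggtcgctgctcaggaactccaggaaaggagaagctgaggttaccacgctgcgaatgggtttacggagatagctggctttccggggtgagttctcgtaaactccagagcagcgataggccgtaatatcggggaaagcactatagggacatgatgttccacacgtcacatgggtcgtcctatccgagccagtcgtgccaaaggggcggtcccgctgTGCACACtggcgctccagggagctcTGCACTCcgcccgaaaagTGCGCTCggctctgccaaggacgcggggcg
Mt2, chr8:94172368-94172667, + strand: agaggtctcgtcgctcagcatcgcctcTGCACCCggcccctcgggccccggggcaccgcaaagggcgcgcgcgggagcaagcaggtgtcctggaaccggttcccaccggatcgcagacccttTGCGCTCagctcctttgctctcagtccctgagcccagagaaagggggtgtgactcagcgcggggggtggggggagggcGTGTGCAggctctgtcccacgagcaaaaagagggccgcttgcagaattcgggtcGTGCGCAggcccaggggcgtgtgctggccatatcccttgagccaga
The Mt1 window held 3 matches and the Mt2 window 4. Of 32851 RefSeq promoter windows of this length, 25.7% held at least 1 match, 1.97% at least 3 and 0.518% at least 4. A match describes the sequence and is not a measured binding site.

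Stat3 and its feedback inhibitor gave smaller differences than the acute phase genes that STAT3 is known to drive. Stat3 itself measured 34.2, 52.4, 42.9, 44.3 and 41.6 TPM at 4 weeks and 68.0, 53.2, 50.1, 42.6 and 40.6 TPM at 6 weeks (0.23, SE 0.18, limma adjusted p = 0.414). Socs3, that inhibitor, measured 40.3, 49.2, 70.0, 61.4 and 59.8 TPM and then 105.8, 59.6, 61.9, 69.8 and 61.4 TPM (0.34, SE 0.56, limma adjusted p = 0.686). All 10 values of Socs3 lay above the 1.71 to 4.21 TPM of mock muscle at both weeks, a separation not counted over all genes. Outside library 1 the 6-week values stayed inside the 4-week range. Serpina3n, an acute phase protease inhibitor, measured 16.7, 234, 26.0, 55.5 and 18.8 TPM at 4 weeks and 435, 195, 128, 124 and 114 TPM at 6 weeks (2.06, SE 0.85). Lcn2, which encodes the iron-siderophore binder lipocalin 2, measured 1.18, 60.8, 2.90, 2.71 and 0.821 TPM and then 257, 48.4, 16.3, 13.9 and 8.06 TPM (2.61, SE 1.03). For both, library 2 at 4 weeks was the only one of its week to reach the 6-week range. Hp, haptoglobin, which binds free haemoglobin, read 20.2, 808, 57.9, 80.4 and 58.5 TPM and then 515, 673, 340.1, 253 and 264 TPM (2.13, SE 0.99). Each of these 3 genes had a limma adjusted p of 0.306, and with all 12 groups the adjusted p values were 0.0358, 0.0328 and 0.0493. With scaling added they were 0.0771, 0.0531 and 0.143, so all 3 calls were lost.

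Acute phase genes as a list gave 8 of 18 higher and 0 lower at an unadjusted p under 0.05, with a median of 0.82 (0.66 after scaling) beside -0.07 in mock muscle; 7 stood higher and 0 lower after scaling. The summed TPM of the list ranged from 106 to 1365 over the 4-week libraries and from 555 to 1635 over the 6-week libraries. Orm1, an acid glycoprotein of plasma, had all 6-week libraries above all 4-week libraries (1.20, SE 0.45), whereas Cp, ceruloplasmin, overlapped through library 2 at 4 weeks (6.30 TPM against a 6-week range of 4.54 to 7.57 TPM). Complement genes gave 6 of 18 higher and 0 lower (median 0.58), and 4 and 0 after scaling (median 0.37). C3, the central complement component, measured 55.6, 181, 51.6, 56.8 and 82.9 TPM at 4 weeks and 247, 239, 145, 116 and 185 TPM at 6 weeks (1.23, SE 0.48). Genes of the STAT3 pathway gave 5 of 21 higher and 0 lower (median 0.34), and 2 higher and 1 lower after scaling (median 0.15). Among chemokines (2 of 16 higher, none lower, median 0.45), Cxcl13, which attracts B cells, averaged 6.92 ± 12.3 TPM at 4 weeks and 22.5 ± 21.0 TPM at 6 weeks (2.24, SE 0.80). Ccl8, a monocyte attractant, differed by 0.54 (SE 1.03).

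**Figure D2:**
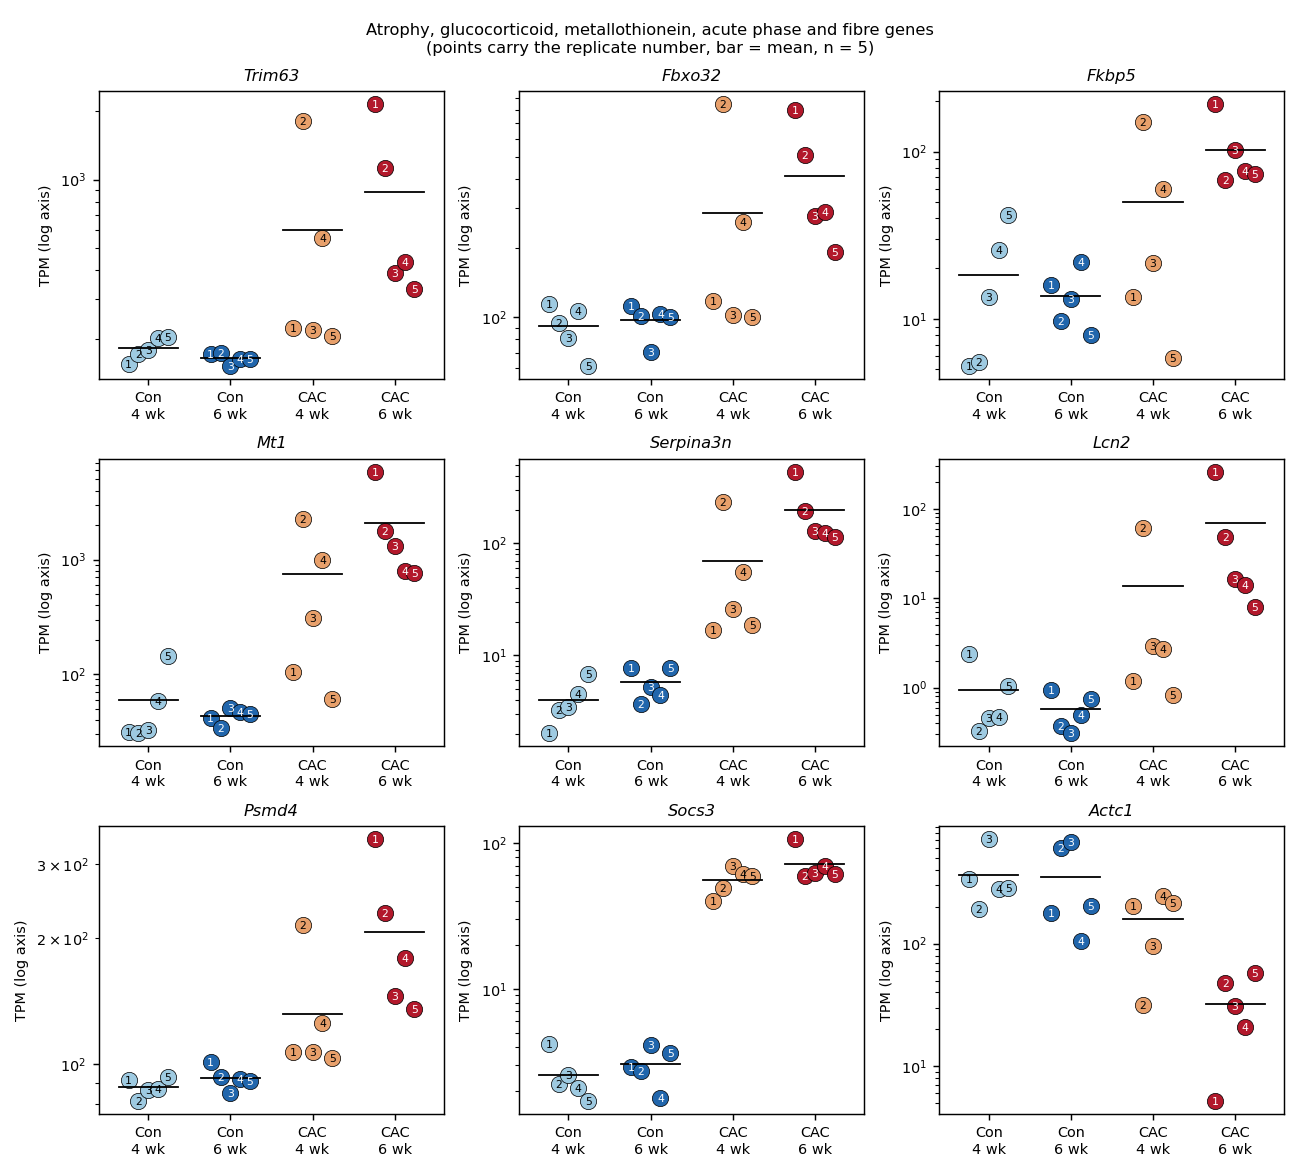
TPM on a log axis of 9 genes in every mock and cachectic library of weeks 4 and 6; each numbered point is a library and the black bar is the group mean. Library 2 at 4 weeks lies among the 6-week libraries in most panels, for example Lcn2 at 60.8 TPM, and Socs3 lies between 40.3 and 70.0 TPM in 9 of the 10 cachectic libraries.

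Growth arrest and metabolic genes showed the same scatter. Cdkn1a, the cell cycle inhibitor p21, measured 15.6, 74.6, 12.7, 28.8 and 21.2 TPM at 4 weeks and 114, 53.5, 69.2, 34.7 and 27.6 TPM at 6 weeks (1.06, SE 0.55). Gadd45a, a stress gene linked to denervation atrophy, differed by 0.62 (SE 0.50). Pdk4, the kinase that shuts pyruvate out of mitochondrial oxidation, spanned 222 to 1842 TPM at 4 weeks and 286 to 991 TPM at 6 weeks; its difference of 0.06 (SE 0.64) turned to -0.15 after scaling. Of 18 growth arrest and p53 target genes, 2 stood higher and 0 lower, with a median of 0.31 (1 and 0 after scaling, median 0.13).

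Genes for making proteins had higher means at 6 weeks almost throughout. All 76 cytoplasmic ribosomal protein genes had a positive difference, 70 stood higher at an unadjusted p under 0.05, and the median was 0.39 beside 0.18 over all genes. After scaling the median was 0.18 beside 0.01, and 14 of 76 stood higher. Their summed TPM was 30865, 43268, 30743, 29877 and 31679 at 4 weeks and 55140, 40146, 44041, 46435 and 33642 at 6 weeks. Library 2 at 4 weeks lay inside the 6-week range, and the other 4 lay below every 6-week library. Rps12, a protein of the small ribosomal subunit, showed the same pattern with 420.0, 622, 405, 397 and 416 TPM and then 832, 683, 751, 625 and 502 TPM (0.59). Mock muscle had a median of 0.09 for the list. Ribosome assembly genes gave 11 of 24 higher (median 0.30) and translation factors 6 of 25 (median 0.27), with 0 lower in both; Eef2, the ribosomal translocase, differed by 0.40 (SE 0.22). After scaling 1 gene stood higher in each of these lists, with medians of 0.11 and 0.06.

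Nuclear genes of energy metabolism had medians near 0, beside 0.18 over all genes. Complex I subunits had a median of -0.03 (1 of 36 higher, 0 lower), subunits of complexes II to V one of -0.05 (2 of 42 higher, 1 lower), and enzymes of the tricarboxylic acid cycle and branched-chain amino acid breakdown one of 0.00 (0 of 28 higher, 2 lower). After scaling, beside 0.01 over all genes, these medians were -0.24, -0.26 and -0.21, with 6, 4 and 4 lower and 0, 1 and 0 higher. All 13 genes of the mitochondrial genome were negative, with a median of -0.20, and 3 stood lower (9 after scaling). One of them, mt-Co2, a subunit of cytochrome oxidase, averaged 38882 ± 4592 TPM at 4 weeks and 32441 ± 5059 TPM at 6 weeks (SD, n = 5 each). Fatty acid oxidation and uptake gave 2 of 29 higher and 3 lower (median -0.01), and 0 higher and 9 lower after scaling (median -0.22). Glycolysis and glycogen genes gave 5 of 24 higher and 0 lower (median -0.02), and 1 higher and 2 lower after scaling (median -0.24).

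Contractile genes differed from member to member. Myh4, the fastest myosin heavy chain, averaged 13122 ± 1419 TPM at 4 weeks and 13744 ± 2061 TPM at 6 weeks; its difference was 0.06 (SE 0.14), and -0.15 after scaling. Actc1, the actin of heart and developing muscle, measured 204, 31.8, 95.6, 244 and 216 TPM at 4 weeks and 5.24, 47.4, 31.1, 20.7 and 57.9 TPM at 6 weeks (-2.29, SE 0.86, limma adjusted p = 0.306). Library 2 was the one 4-week library inside the 6-week range. Myl1, a light chain of fast myosin, measured 6947, 3770.3, 7896, 7000.3 and 8972 TPM at 4 weeks and 2319, 5322, 4914, 4077 and 4650.2 TPM at 6 weeks (-0.70, SE 0.28). Over 22 fast sarcomere genes, 0 stood higher and 3 lower, and the median was 0.06; after scaling 5 stood lower and the median turned to -0.16.

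Some calcium-handling genes also had lower means. Casq1, the calcium store protein of the fast sarcoplasmic reticulum, measured 2663, 706, 2920.4, 2276 and 3129 TPM at 4 weeks and 356, 1054, 1606, 980.1 and 1473 TPM at 6 weeks (-1.10, SE 0.56). Pvalb, the calcium buffer parvalbumin of fast fibres, averaged 13239 ± 3431 TPM and then 7899 ± 3310 TPM (-0.84, SE 0.37). Library 2 at 4 weeks was again low for both genes, at 706 TPM for Casq1 and 7163 TPM for Pvalb. By contrast Atp2a1, the calcium pump of the same membrane, averaged 22287 ± 2880 TPM and then 25649 ± 3014 TPM, and the list of 18 gave 0 higher and 1 lower with a median of -0.11 (0 and 7 after scaling, median -0.33). Sln, sarcolipin, which inhibits that pump, measured 43.4, 26.7, 21.9, 12.6 and 11.4 TPM at 4 weeks and 155, 57.0, 50.8, 137 and 24.0 TPM at 6 weeks (1.68, SE 0.59). It belonged to the 21 genes of developing, denervated or injured fibres, of which 5 stood higher and 2 lower (median 0.28), and 2 and 2 after scaling (median 0.11).

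Of 23 myokines and growth factors, 3 stood higher and 2 lower, with differences from -1.95 to 1.06 and a median of 0.03; after scaling 2 stood higher and 4 lower, and the median turned to -0.11. Igf1, which favours fibre growth, measured 3.24, 5.48, 3.17, 3.18 and 4.15 TPM at 4 weeks and 6.33, 6.02, 6.39, 4.49 and 6.24 TPM at 6 weeks (0.52, SE 0.24, limma adjusted p = 0.306). Mstn, myostatin, which limits fibre growth, differed by 0.10 (SE 0.23) and by -0.10 after scaling. Ostn, the muscle peptide osteocrin, measured 21.99, 4.14, 23.6, 18.3 and 39.95 TPM at 4 weeks and 7.20, 8.87, 10.4, 16.3 and 15.3 TPM at 6 weeks (-0.63, SE 0.47). In mock muscle it stood at 49.4, 52.7, 30.1, 49.6 and 22.8 TPM and then 135, 160.3, 92.0, 27.2 and 106 TPM (1.18, limma adjusted p = 0.0866). The difference between those changes was -1.81 (SE 0.67, limma unadjusted p = 0.0138, adjusted p = 0.599).

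The genes of lowest p were not those of the atrophy programme. Abca7, a lipid transporter of the ABC family (chr10:79996494-80015572), measured 5.17, 6.62, 5.80, 5.14 and 5.34 TPM at 4 weeks and 9.74, 8.09, 8.43, 8.34 and 7.00 TPM at 6 weeks. The groups did not overlap, and the difference of 0.49 (SE 0.10) had a limma unadjusted p of 8.55e-05 and an adjusted p of 0.306. Mock muscle differed by 0.05, and with all 12 groups limma gave Abca7 an adjusted p of 0.00318, and 0.0444 with scaling added. Next in order, apart from predicted genes, were Fscn2, an actin-bundling protein (0.87), and Fmo1, a flavin monooxygenase (1.00). Acaca (1.10) and Ldlrad3, a receptor of the LDL receptor family (0.93), followed. Fscn2 lay near the filter of 1 TPM, averaging 0.63 TPM at 4 weeks and 1.97 TPM at 6 weeks. In mock muscle it averaged 0.37 and 0.43 TPM. Tmtc1, a mannosyltransferase of the endoplasmic reticulum, had the lowest p among genes with a lower mean, at 28.7, 24.5, 37.7, 30.1 and 32.0 TPM and then 18.2, 19.3, 21.5, 23.5 and 23.6 TPM. Its groups did not overlap (-0.50, SE 0.13, limma unadjusted p = 0.000978). Rps6kc1, a kinase-like protein, also had non-overlapping groups (-0.33). Lsmem1, a small membrane protein (-0.52), Gid4, which recognises substrates of a ubiquitin ligase (-0.34), and Dusp23, a phosphatase (-0.61), overlapped between weeks.

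Enzymes that make fatty acids had higher means at 6 weeks; this group was picked after its values were seen, so its counts carry no weight as a test. Acaca, acetyl-CoA carboxylase, which commits acetyl-CoA to fatty acids, measured 5.54, 8.44, 3.09, 3.67 and 3.78 TPM at 4 weeks and 19.6, 11.7, 6.91, 11.8 and 8.50 TPM at 6 weeks (SE 0.26). Scd1, which puts a double bond into saturated fatty acids, measured 57.7, 66.3, 52.6, 44.9 and 55.7 TPM at 4 weeks and 176, 169.8, 113, 124 and 180.3 TPM at 6 weeks. The Scd1 groups did not overlap, and the difference was 1.43 (limma adjusted p = 0.306, and 0.0140 when the 10 libraries alone were fitted). Fasn, fatty acid synthase, measured 25.9, 15.8, 3.33, 10.6 and 13.6 TPM and then 79.7, 34.0, 21.5, 30.3 and 43.6 TPM (1.61), overlapping through library 1 at 4 weeks. Acly, which makes cytosolic acetyl-CoA, did not overlap (11.4, 10.8, 5.80, 7.06 and 7.48 TPM, then 23.1, 12.02, 11.8, 14.8 and 12.5 TPM). Their regulator Srebf1 differed by 0.30. As much Scd1 was present in 1 mock library at 4 weeks (191 TPM) and 1 at 6 weeks (182 TPM).

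Fat cell markers also had higher means at 6 weeks. Of 14 adipocyte and lipolysis genes, 9 stood higher and 1 lower at an unadjusted p under 0.05, with a median of 0.76 (0.22 in mock muscle); 8 stood higher and 1 lower after scaling. The summed TPM of that list ranged from 3325 to 4731 over the 4-week libraries and from 3578 to 5066 over the 6-week libraries. Adipoq, the fat hormone adiponectin, measured 17.2, 82.3, 16.4, 20.5 and 26.3 TPM at 4 weeks and 65.3, 88.3, 46.1, 44.2 and 77.8 TPM at 6 weeks (1.20, SE 0.42). Cfd, adipsin, measured 281, 964, 142, 294 and 443 TPM and then 1081, 1155, 646, 648 and 1362 TPM (1.43, SE 0.45). Library 2 at 4 weeks again lay inside the 6-week range for both. Car3, a carbonic anhydrase abundant in fat and slow muscle, was the 1 lower gene (-0.67), and Lep, leptin, stood near 1 TPM in both weeks. The part of fat cells in the values of the fatty acid enzymes was not tested.

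Red cell transcripts had lower means at 6 weeks. Hba-a1, an alpha globin, measured 869, 848, 686, 405 and 552 TPM at 4 weeks and 143, 367, 205, 203 and 258 TPM at 6 weeks (-1.52, SE 0.71). Hbb-bs, a beta globin, measured 1296, 861, 698, 562 and 507 TPM and then 158, 400.3, 231, 182 and 342 TPM (-1.58). Alas2, the first enzyme of haem synthesis in red cell precursors, measured 8.80, 6.91, 4.13, 3.67 and 3.65 TPM and then 0.786, 2.17, 1.36, 1.50 and 3.00 TPM (-1.20). The groups did not overlap for these 3 genes or for Hbb-bt. Among all genes, 0.121% had every 6-week library below every 4-week library. Reads of the near-identical globin copies could be split between them by the counting, so the globin genes may not be independent. Of the 5 blood markers tested, 2 stood lower and 0 higher at an unadjusted p under 0.05 (3 and 0 after scaling). Mock muscle had the same sign, with -1.14 for Hba-a1 (limma adjusted p = 0.216), and the difference between the changes was -0.38 (limma unadjusted p = 0.556).

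**Figure D3:**
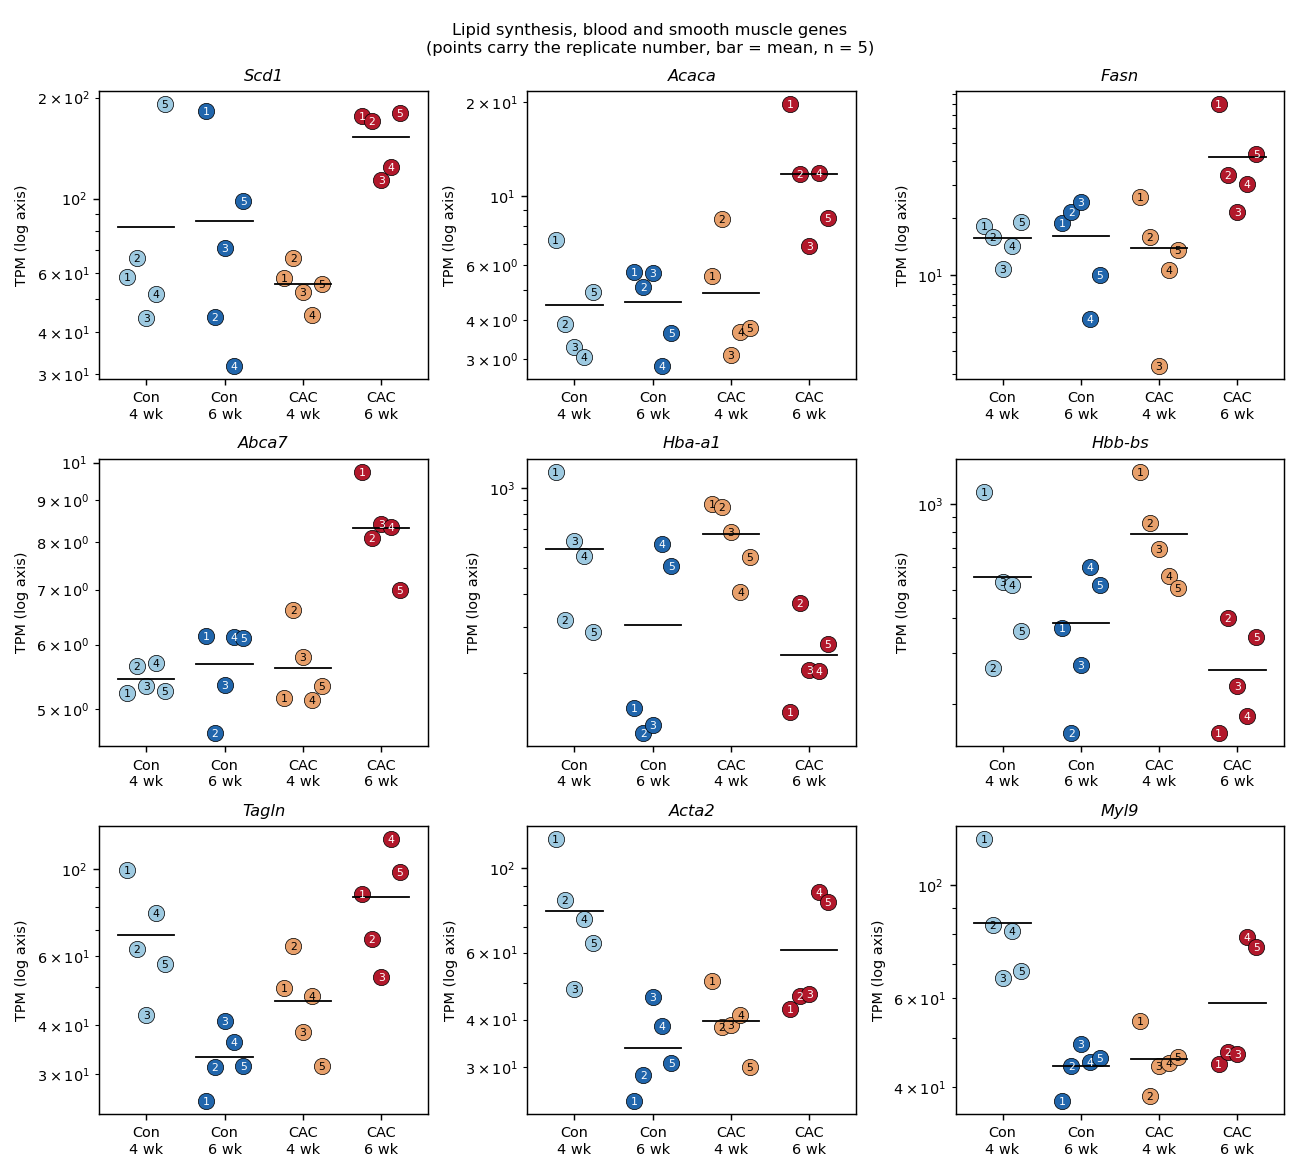
TPM on a log axis of 9 genes in every mock and cachectic library of weeks 4 and 6, with library numbers as points and the group mean as a black bar. Scd1, Abca7, Hba-a1 and Hbb-bs do not overlap between the cachectic weeks, and Tagln, Acta2 and Myl9 have lower means at 6 weeks in mock muscle but higher means in cachectic muscle.

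Markers of other cell types gave the following counts at an unadjusted p under 0.05. Of 16 macrophage genes 1 stood higher (median 0.43, and 0.38 in mock muscle), of 12 endothelial genes 4 stood higher (median 0.31), and of 12 fibroblast genes 2 stood higher (median 0.21), with 0 lower in each. After scaling 1, 0 and 0 of them stood higher, with medians of 0.24, 0.11 and 0.00. None of 6 lymphocyte genes did so in either direction, and Ighm, the heavy chain of immunoglobulin M, differed by -0.14 (SE 0.61). Of 10 melanocyte and tumour markers only Mitf, S100b and Sox10 passed the filter, and their means were at most 5.06 TPM at either week.

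The change from 4 to 6 weeks was then set against that of mock muscle in one limma fit of 20 libraries. No gene was called for the difference of the changes (0% of 12364, lowest adjusted p 0.0824), with 775 genes more positive in cachectic muscle (6.27%) and 233 more negative (1.88%) at an unadjusted p under 0.05. The median difference of the changes was 0.11. After scaling the counts turned over, to 480 more positive and 646 more negative, with a median of -0.01 and 0 called. Weighting libraries by their spread gave 88 calls by limma, and leaving out library 2 of the cachectic 4-week group gave 60 (2398 more positive at an unadjusted p under 0.05). None of the 25 stress, growth and fibre genes fixed for this comparison had an adjusted p under 0.599 here: Mt1 gave 2.33 (SE 1.07), Lcn2 2.83 (SE 1.17) and Actc1 -2.04 (SE 0.90).

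Contractile genes of smooth muscle were among the genes of lowest p for that difference. Tagln, transgelin, an actin-binding protein of smooth muscle, measured 49.7, 63.5, 38.3, 47.5 and 31.4 TPM in cachectic muscle at 4 weeks and 86.1, 66.3, 53.1, 119 and 98.4 TPM at 6 weeks (0.85, SE 0.30). In mock muscle it fell from 99.2, 62.5, 42.4, 77.1 and 57.1 TPM to 25.6, 31.2, 40.9, 36.1 and 31.5 TPM (-0.97, limma adjusted p = 0.0121). The difference of the changes was 1.82 (SE 0.32, limma unadjusted p = 1.87e-05, adjusted p = 0.0824). Acta2, the actin of smooth muscle, measured 50.4, 38.3, 38.8, 41.2 and 29.9 TPM and then 42.5, 46.3, 46.8, 86.6 and 81.8 TPM in cachectic muscle. In mock muscle Acta2 fell from 119, 82.6, 48.2, 73.4 and 63.8 TPM to 24.5, 28.5, 46.0, 38.5 and 30.7 TPM (-1.15, limma adjusted p = 0.00799), and the difference of the changes was 1.70 (limma adjusted p = 0.142). Myl9, a regulatory light chain of smooth muscle myosin, fell in mock muscle by 0.88 (limma adjusted p = 0.00792), and its difference of the changes was 1.20 (limma adjusted p = 0.146). After scaling the differences of the changes were 1.69 for Tagln, 1.58 for Acta2 and 1.07 for Myl9 (limma adjusted p = 0.186, 0.198 and 0.294). For these 3 genes every mock library at 6 weeks lay below every mock library at 4 weeks, whereas the cachectic weeks overlapped. The 3 genes were named for their low p in these same libraries. How many of all genes separated this way in mock muscle was not counted. Cachectic libraries 4 and 5 were the highest of week 6 for Tagln, Acta2 and Myl9.

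Of 13 smooth muscle and pericyte genes, limma called 5 lower at 6 weeks in mock muscle (adjusted p under 0.05), beside 0.226% of all genes. At an unadjusted p under 0.05, 5 had a more positive change in cachectic muscle, beside 6.27% of all genes. List counts for the difference of the changes were not made after scaling. The median of the differences was 0.39, beside 0.11 over all genes. Endothelial genes gave 6 of 12 in that direction (median 0.41). That direction was not confined to genes of vessels. Acute phase genes gave 8 of 18 (median 0.78) and cytoplasmic ribosomal protein genes 11 of 76 (median 0.31), with 0 more negative in each. Schwann cell markers gave 1 of 12 with a median of 0.82, and adipocyte genes 1 more positive and 1 more negative of 14 (median 0.53). Igfbp7, a secreted protein of vessel walls, measured 165, 226, 161, 181 and 206 TPM at 4 weeks and 252, 262, 239, 319 and 265 TPM at 6 weeks in cachectic muscle, with no overlap, and its difference of the changes was 0.80 (limma adjusted p = 0.146). The other genes of lowest p were Gm43565 (1.31) and Gm13889 (1.40), both predicted genes, Kcne4, a potassium channel subunit (0.72), and Gimap1, a GTPase of immune cells (0.63). Gimap1 fell in mock muscle by 0.37 (limma adjusted p = 0.0441).

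**Figure D4:**
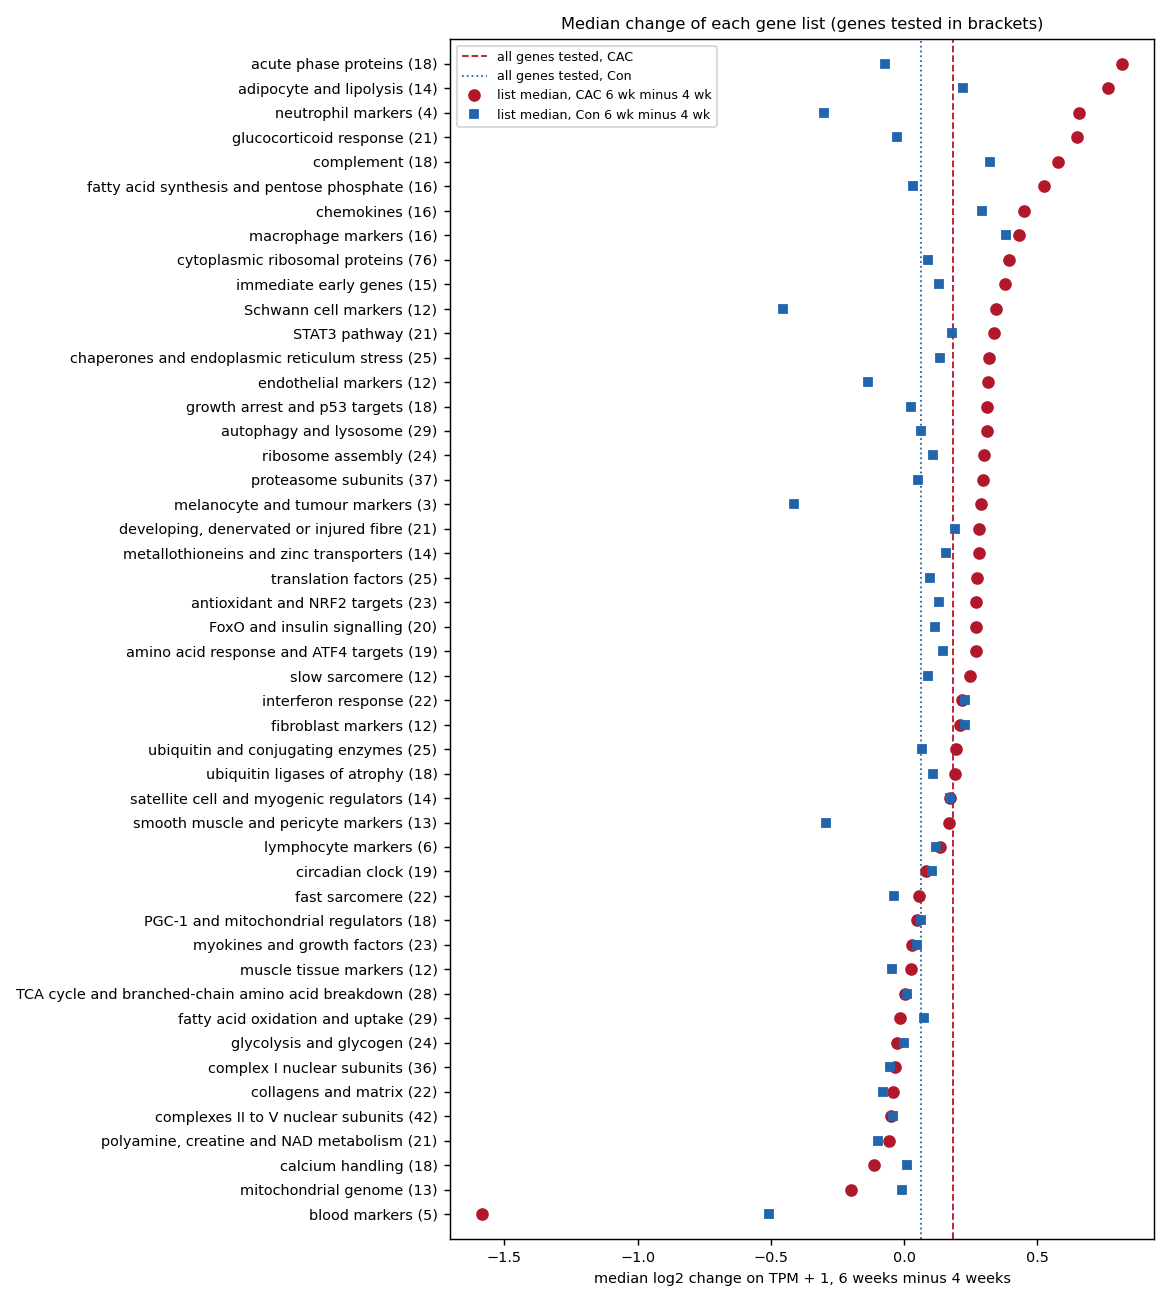
Median log2 difference, 6 weeks minus 4 weeks, of each gene list in cachectic (red circles) and mock muscle (blue squares); the vertical lines are the medians over all 12364 genes, 0.18 and 0.06. Among all lists plotted, acute phase genes (0.82) and adipocyte genes (0.76) lie furthest right in cachectic muscle and blood markers (-1.58) furthest left. The list of fatty acid synthesis genes was picked after its values were seen.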

How the data were processed

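Gastrocnemius RNA was sequenced after TruSeq stranded mRNA preparation on an Illumina NovaSeq instrument, per the labels' protocols. The authors deposited one table of TPM values for 47643 gene symbols in 62 libraries; the build was mm10 per the submitters' processing notes, and which aligner, counter and annotation were used is not given in the sources used here. TPM is a share of each library, so a change in abundant transcripts moves all others.

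The test was limma 3.58.1 on log2(TPM + 1) (variance trend, two-sided, R 4.3.3): 22 cachectic libraries for cachectic muscle, 20 mock libraries for mock muscle, and 20 libraries of weeks 4 and 6 for the difference between them. Adjusted p values cover all 12364 genes. No 2 libraries were identical. Each p value sets a difference of means against the spread between libraries, pooled over all libraries in the fit. The labels name the replicates only as biological, so this spread is that between these samples.

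The genes named were 25 fixed genes, the 5 of lowest p in each direction, passing over predicted genes and clone names (none was called), and the 8 of lowest p for the difference of the changes; others come from 47 fixed gene lists or were chosen after their values were seen. Members and lists were chosen with earlier results of these data known. The code was tested on simulated data. Replicate numbers were not treated as pairs of libraries. The check behind this, a correlation of deviations, cannot show whether cages, dissection days or preparation were shared. Alternatives covered the pseudocount, filters, scaling, mitochondrial genes, weights, libraries in the fit, a replicate block and each library left out. Coordinates are from GENCODE vM21.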

Additional observations from a re-analysis of the deposited data

Results flagged for a closer look

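A library was singled out when, on log2(TPM + 1), it lay far from the other 4 of its group relative to the group's range. In all, 88 groups of values were examined, 8 were singled out, and chance alone does so for about 1 group in 20. On plain TPM the libraries singled out could differ. At 4 weeks, library 2 was high for Lcn2 (60.84 TPM) and Psmd4 (214.5 TPM) and low for Casq1 (706.3 TPM), and library 5 was low for Kcne4 (1.325 TPM). At 6 weeks, library 1 was high for Socs3 (105.8 TPM), and library 4 was low for Igf1 (4.493 TPM) and Mstn (26.3 TPM) and high for Gm13889 (18.03 TPM).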

How the results depend on the processing

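Between 6 and 4 weeks in cachectic muscle, limma called 0 genes with a pseudocount of 0.1, a filter of 5 TPM, a filter over the groups compared, median-ratio scaling, mitochondrial genes left out, and each of the 10 libraries left out in turn. It called 1 gene with no filter, 1 with the 10 libraries alone, 1208 with all 12 groups and 3418 with array weights. Scaling joined to those last 2 settings, tried after seeing the data, gave 86 (28 higher and 58 lower) and 580 (197 higher and 383 lower). Genes standing higher at an unadjusted p under 0.05 ranged from 818 to 4469 with single libraries left out (818 without library 1 and 1191 without library 4 at 6 weeks; 833, 4469, 1005, 1225 and 1041 without libraries 1 to 5 at 4 weeks). For the difference of the changes, array weights gave 88 calls, and leaving out single libraries gave 0 to 60: 60 without library 2 of the cachectic 4-week group, 2 without library 3 of the mock 4-week group, and 1 each without library 5 of the cachectic and library 4 of the mock 6-week group. In mock muscle the 696 calls became 153 with scaling (107 higher and 46 lower), 390 with array weights, 200 with all 12 groups, 0 with 10 libraries alone (1800 higher and 182 lower at an unadjusted p under 0.05), 17 with array weights and scaling, and 160 to 780 with single libraries left out. The lowest, 160, was without library 1 at 4 weeks; the counts were 327 and 276 without libraries 4 and 5 at 4 weeks, and 204 and 237 without libraries 1 and 3 at 6 weeks. The cause was not tested.

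The mitochondrial share difference ranged from -5.10 to -2.34 points with single libraries left out; -5.10 was without library 5 at 6 weeks (exact permutation p = 0.0317). Signs turned for Pdk4 (-0.15 with scaling, also with all 12 groups; -0.010 without mitochondrial genes; -0.29 to 0.47 with single libraries left out), Mstn (-0.10 with scaling, also with all 12 groups; -0.063 to 0.26), Myh4 (-0.15 with scaling, also with all 12 groups; -0.012 without mitochondrial genes; -0.10 with weights and scaling), and, with weights and scaling, Stat3 (-0.026) and Socs3 (-0.055). Ighm ranged from -0.58 to 0.15 with single libraries left out.

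Replicate numbers: same-numbered cachectic libraries of weeks 4 and 6 had correlated deviations in 3 of 5 pairs (-0.30 to 0.37), and 1 of 5 libraries correlated best with its own number, so they were not treated as pairs. With a replicate block, limma called 0 genes in cachectic muscle (2468 higher and 180 lower at an unadjusted p under 0.05) and 530 in mock muscle.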
